A study of Mus musculus with 12 samples.

Results

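The 9 genes of the acute-phase and antimicrobial response of macrophages (Saa3, Lcn2, Acod1, Nos2, Fpr1, Fpr2, Slpi, Slc15a2 and Slamf8) were followed on 12 expression arrays of mouse bone marrow cultures. Each gene was read from the probe set that the platform annotation assigns to it alone, and the brightest over the 12 arrays was taken where there were more. On that rule 8 of the 9 genes, of 18193 genes in all, had a value. Fpr1 was not analysed here. The probe sets were chosen by their mean level over all arrays. The 9 genes were selected on levels and differences seen earlier in these arrays, so their values are a description and their adjusted p-values are not independent evidence.

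Primary whole bone marrow cultures came from female C57BL/6 mice aged 6 weeks. Estradiol cultures received 17β-estradiol, the main circulating estrogen, at 1 nM for 1 week, and control cultures are named only as controls in the labels. From these cultures a c-kit+ fraction, called stem cells in the labels, and a CD44+ fraction, called stromal cells, were collected. The 4 groups were c-kit+ estradiol, c-kit+ control, CD44+ estradiol and CD44+ control, with 3 arrays each, and the number of arrays limits the precision. Nothing in the labels ties a replicate to an animal or a culture of its own, so the p-values measure only the spread between these samples, which may be technical. In bulk RNA of this kind fewer cells of a type and less RNA per cell cannot be told apart.

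Saa3, Lcn2 and Slpi encode secreted proteins. Serum amyloid A3 is an acute-phase protein made outside the liver, including by macrophages. Lipocalin 2 binds bacterial siderophores and so keeps iron from bacteria, and secretory leukocyte peptidase inhibitor blocks neutrophil serine proteases. Acod1 makes itaconate from cis-aconitate in activated macrophages, and Nos2 is the inducible nitric oxide synthase. Fpr1 and Fpr2 are G protein-coupled receptors for formylated peptides that guide phagocytes to bacteria. Slc15a2 is a proton-coupled carrier of short peptides, and Slamf8 is a surface receptor of the SLAM family found on macrophages. Many genes of this response are induced by bacterial products and inflammatory cytokines through NF-κB and C/EBP transcription factors.

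Macrophage markers were read at high levels in both fractions. Of 14 macrophage markers 13 had a mean level of at least 8 on the log2 scale, and the mean of the list ran from 11.93 to 12.18 on c-kit+ estradiol arrays, 11.93 to 11.99 on c-kit+ control arrays, 11.66 to 11.87 on CD44+ estradiol arrays and 11.49 to 11.70 on CD44+ control arrays. Kit, the marker that names the c-kit+ fraction, had a mean of 3.94 on c-kit+ estradiol arrays and 3.97 on c-kit+ control arrays. That is the level of transcripts which female mice lack, since 13 of 15 probe sets of Y-linked genes had means under 4 and the other two 4.30 and 6.22. The defining transcript of the c-kit+ fraction was therefore not seen above background, while Cd44 had a mean of 12.13 over all arrays. Cd44 was not called between the fractions. It had means of 12.14 and 11.93 on c-kit+ estradiol and control arrays, against 12.33 and 12.12 on CD44+ estradiol and control arrays. Of 9 measured stem and progenitor markers 1 was called between fractions in estradiol cultures, Cd34, which was lower in c-kit+ than in CD44+ cells (-1.43, limma adjusted p = 0.03178). None of 13 measured neutrophil and granule markers reached a mean of 8. Csf3r had the highest mean, 7.80, followed by Mmp8 with 7.21, while Mpo, a neutrophil granule enzyme, had a mean of 4.36. The list means of the 13 markers lay between 4.90 and 5.42 on the 12 arrays. In control cultures 1 of the 13 was called between fractions, Csf3r, which was higher in c-kit+ than in CD44+ cells (0.72, limma adjusted p = 0.04267).

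Promoter sequences of 6 of the genes are shown: the 5 that held a match to either motif below, and that of Fpr2, which held none but had the largest estradiol differences after Acod1. Each is 300 bases long and spans the transcript start (RefSeq, GRCm38.p6, the build of all coordinates here). Capitals mark matches on either strand to an NF-κB motif (GGG and CC with any 5 bases between them) or a C/EBP motif (TTGCNNAA). Promoters of 8 of the 9 genes were found in the table, the exception being Nos2.
Saa3, chr7:46715627-46715926, minus strand: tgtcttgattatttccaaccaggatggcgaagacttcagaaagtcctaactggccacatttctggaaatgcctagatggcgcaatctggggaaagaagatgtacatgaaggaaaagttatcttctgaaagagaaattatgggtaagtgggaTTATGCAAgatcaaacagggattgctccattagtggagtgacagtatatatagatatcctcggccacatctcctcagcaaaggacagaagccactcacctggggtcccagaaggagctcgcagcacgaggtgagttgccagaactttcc
Lcn2, chr2:32387690-32387989, minus strand: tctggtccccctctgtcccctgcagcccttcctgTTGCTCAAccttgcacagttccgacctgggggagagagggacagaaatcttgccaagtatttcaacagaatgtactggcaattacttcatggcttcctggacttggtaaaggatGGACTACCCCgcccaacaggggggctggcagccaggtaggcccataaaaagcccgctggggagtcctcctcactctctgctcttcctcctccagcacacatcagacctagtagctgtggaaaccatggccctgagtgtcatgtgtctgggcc
Slpi, chr2:164356458-164356757, minus strand: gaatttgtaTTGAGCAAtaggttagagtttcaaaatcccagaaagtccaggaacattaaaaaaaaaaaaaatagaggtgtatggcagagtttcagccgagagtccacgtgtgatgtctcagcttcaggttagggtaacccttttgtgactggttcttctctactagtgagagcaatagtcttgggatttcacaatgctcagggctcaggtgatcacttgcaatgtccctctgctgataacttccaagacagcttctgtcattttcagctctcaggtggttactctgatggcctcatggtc
Acod1, chr14:103046762-103047061, plus strand: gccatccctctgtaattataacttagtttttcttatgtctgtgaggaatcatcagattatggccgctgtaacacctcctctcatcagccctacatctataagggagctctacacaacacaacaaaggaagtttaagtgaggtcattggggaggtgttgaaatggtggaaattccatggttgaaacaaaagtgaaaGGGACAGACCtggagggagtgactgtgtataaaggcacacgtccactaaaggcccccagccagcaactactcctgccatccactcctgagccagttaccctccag
Fpr2, chr17:17887574-17887873, plus strand: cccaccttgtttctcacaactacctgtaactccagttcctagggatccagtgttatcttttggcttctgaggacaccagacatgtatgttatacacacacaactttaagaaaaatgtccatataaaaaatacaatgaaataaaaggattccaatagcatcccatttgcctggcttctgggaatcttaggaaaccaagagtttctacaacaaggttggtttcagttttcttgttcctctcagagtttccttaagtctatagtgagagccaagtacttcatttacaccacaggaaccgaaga
Slamf8, chr1:172590519-172590818, minus strand: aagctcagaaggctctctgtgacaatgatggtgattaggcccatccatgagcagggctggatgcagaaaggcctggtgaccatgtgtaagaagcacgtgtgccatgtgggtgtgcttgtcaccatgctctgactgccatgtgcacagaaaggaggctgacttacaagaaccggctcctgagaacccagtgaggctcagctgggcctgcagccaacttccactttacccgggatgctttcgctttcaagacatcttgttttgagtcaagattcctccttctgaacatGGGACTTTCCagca

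The C/EBP motif was present in 3 of the 8 promoters, those of Saa3, Lcn2 and Slpi, against 10.8% of 32851 promoters of the same length. In Saa3 the match TTATGCAA began 99 bases before the start, in Lcn2 TTGCTCAA began 216 bases before it and in Slpi TTGAGCAA began 241 bases before it. The NF-κB motif was present in 3 of the 8, Lcn2, Acod1 and Slamf8, against 50.8% of all promoters. Its matches were GGACTACCCC at 102 bases before the start in Lcn2, GGGACAGACC at 55 bases before it in Acod1 and GGGACTTTCC at 36 bases after it in Slamf8. No match of one motif overlapped one of the other. Fpr1, Fpr2 and Slc15a2 held neither set of letters in these windows. A match is a description of the letters and does not show binding.

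Saa3 (chr7:46711998-46719615) was read at log2 levels of 12.04, 13.11 and 13.15 on c-kit+ estradiol arrays 1, 2 and 3, against 10.55, 12.75 and 12.59 on c-kit+ control arrays. In CD44+ cells the levels were 11.63, 12.78 and 12.95 with estradiol, against 10.46, 12.67 and 12.23 without. In both fractions the arrays numbered 1 were lowest and the estradiol and control groups overlapped. The difference between estradiol and control was 0.80 ± 0.63 in c-kit+ cells and 0.66 ± 0.63 in CD44+ cells (log2, SE of the limma fit over all genes, adjusted p = 0.9994 and 0.9496, 3 arrays against 3), and neither passed the threshold of 0.05. Single arrays moved both values: without control replicate 1 of the fraction the difference was 0.10 in c-kit+ and 0.0003 in CD44+ cells. Estradiol replicate 1, also the lowest of its group, stayed in that fit. With replicate 1 of all groups left out the difference was 0.46 in c-kit+ and 0.41 in CD44+ cells. That setting was added after the data were seen.

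Lcn2 (chr2:32384637-32387739) had levels of 4.91, 7.15 and 6.95 in c-kit+ estradiol cells, against 4.68, 6.49 and 5.57 in c-kit+ control cells. CD44+ estradiol arrays gave 5.13, 6.89 and 6.13, against 4.25, 6.23 and 5.69 on CD44+ control arrays. Replicate 1 was lowest in all 4 groups, and estradiol and control arrays overlapped. The differences of 0.76 ± 0.66 in c-kit+ cells and 0.66 ± 0.66 in CD44+ cells did not pass (limma, adjusted p = 0.9994 and 0.9496). Without control replicate 1 of the fraction they were 0.31 in c-kit+ and 0.09 in CD44+ cells. Estradiol replicate 1, the lowest of its group, stayed in that fit. With replicate 1 of all groups left out they were 1.02 in c-kit+ and 0.55 in CD44+ cells.

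Slpi (chr2:164354070-164356507) read 7.80, 8.55 and 8.66 in c-kit+ estradiol cells, against 7.43, 8.38 and 7.96 in c-kit+ control cells. In CD44+ cells it read 7.61, 8.28 and 8.24 with estradiol, against 7.35, 8.02 and 8.07 without. Estradiol and control arrays overlapped in each fraction. With 0.41 ± 0.29 in c-kit+ cells and 0.23 ± 0.29 in CD44+ cells, Slpi had the smallest differences of the secreted proteins, and neither passed (limma, adjusted p = 0.9994 and 0.9543). Without control replicate 1 of the fraction the values were 0.16 in c-kit+ and -0.0004 in CD44+ cells. Estradiol replicate 1, the lowest of its group, stayed in that fit. With replicate 1 of all groups left out the values were 0.43 in c-kit+ and 0.22 in CD44+ cells.

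Acod1 (chr14:103047012-103056573) was higher on estradiol than on control arrays in both fractions. Its levels were 11.67, 12.47 and 12.26 on c-kit+ estradiol arrays, against 10.01, 11.25 and 10.61 on c-kit+ control arrays. CD44+ estradiol arrays read 11.76, 12.54 and 12.57, against 10.06, 11.11 and 10.87 on CD44+ control arrays. Each estradiol array lay above each control array of its fraction, and this itaconate-making enzyme had the largest difference of the 8 genes. The difference was 1.51 ± 0.34 in c-kit+ cells (2.85-fold, limma, adjusted p = 0.1787) and 1.61 ± 0.34 in CD44+ cells (3.05-fold, adjusted p = 0.09567). Neither passed over all genes, and both lay at the 99.98th percentile of all genes' differences.

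Nos2 (chr11:78920787-78960226), the other metabolic enzyme of the set, was read close to background on every array. Its levels were 4.54, 4.28 and 4.77 in c-kit+ estradiol cells, against 4.68, 4.16 and 4.28 in c-kit+ control cells. In CD44+ cells they were 4.61, 4.44 and 4.53 with estradiol, against 4.60, 4.45 and 4.86 without. The groups overlapped, and the differences of 0.16 ± 0.16 in c-kit+ cells and -0.11 ± 0.16 in CD44+ cells did not pass (limma, adjusted p = 0.9994 and 0.9543). In CD44+ cells the sign turned without control replicate 3 (0.0051), without replicate 3 of all groups and with array weights (0.05).

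Fpr2 (chr17:17887824-17893952), the formyl peptide receptor with a value, had levels of 10.79, 11.76 and 11.85 on c-kit+ estradiol arrays, against 9.70, 10.83 and 10.64 on c-kit+ control arrays. CD44+ estradiol arrays gave 10.75, 11.55 and 11.58, against 9.34, 10.61 and 10.36 on CD44+ control arrays. In CD44+ cells all 3 estradiol arrays were above all 3 control arrays, and in c-kit+ cells estradiol replicate 1 fell just under the highest control array. The differences were 1.08 ± 0.39 in c-kit+ cells (2.11-fold, limma, adjusted p = 0.813) and 1.19 ± 0.39 in CD44+ cells (2.28-fold, adjusted p = 0.5289). Neither passed over all genes.

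Slc15a2 (chr16:36750161-36785158), the peptide carrier, read 7.22, 9.20 and 8.87 in c-kit+ estradiol cells, against 6.88, 8.22 and 8.60 in c-kit+ control cells. CD44+ estradiol cells gave 6.59, 9.11 and 8.53, against 6.20, 7.99 and 6.97 in CD44+ control cells. The groups overlapped in both fractions through replicate 1, which was lowest in each group. The differences were 0.53 ± 0.69 in c-kit+ and 1.02 ± 0.69 in CD44+ cells (limma, adjusted p = 0.9994 and 0.9489), and neither passed. Single arrays moved both: the value was 0.02 in c-kit+ cells without control replicate 1, and 0.51 in CD44+ cells without estradiol replicate 2. In each case the array of the same number in the other treatment stayed in. With replicate 1 of all groups left out the differences were 0.63 in c-kit+ and 1.34 in CD44+ cells. Slc15a2 was the 1 gene of the set with more than 1 probe set, and the other two were flat, with estradiol differences between -0.08 and 0.0004 and levels between 4.04 and 4.92 over the 12 arrays.

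Slamf8 (chr1:172581377-172590873), the SLAM family receptor, read 6.26, 7.45 and 6.79 in c-kit+ estradiol cells, against 5.65, 6.59 and 6.41 in c-kit+ control cells. CD44+ estradiol cells gave 5.86, 6.69 and 6.45, against 5.37, 6.17 and 5.89 in CD44+ control cells. The groups overlapped through replicate 1 in both fractions. The differences of 0.61 ± 0.32 in c-kit+ cells and 0.52 ± 0.32 in CD44+ cells did not pass (limma, adjusted p = 0.9994 and 0.9489). They were 0.31 in c-kit+ cells without estradiol replicate 2 and 0.31 in CD44+ cells without control replicate 1. In each case the array of the same number in the other treatment stayed in. With replicate 1 of all groups left out they were 0.62 in c-kit+ and 0.54 in CD44+ cells.

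**Figure D1:**
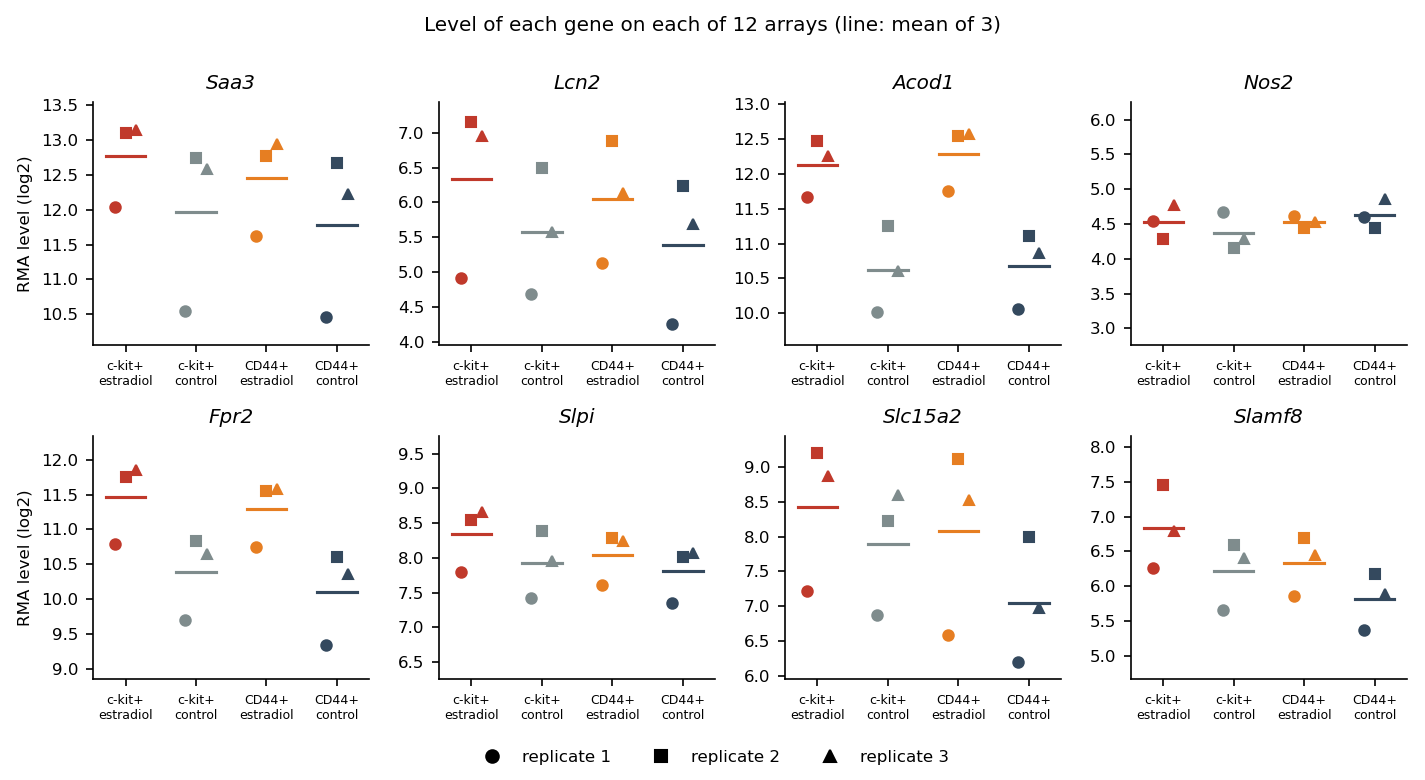
Level of each of 8 genes (vertical axis, log2 scale as deposited, same height of axis in each panel) on 12 arrays in 4 groups, with symbols for replicates 1, 2 and 3 and a line at the mean of 3. The circles of replicate 1 are lowest in all 4 groups for 7 genes, and Acod1 is the gene whose estradiol and control arrays do not overlap in either fraction.

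None of the 8 genes was called in either estradiol comparison by limma, where 0.181% of all genes were called in c-kit+ cells and 0.291% in CD44+ cells. At an unadjusted p under 0.05 there were 2 in each fraction, Acod1 and Fpr2, beside 814 of the 18193 genes in c-kit+ cells and 978 in CD44+ cells. All 8 differences were above 0 in c-kit+ cells and 7 in CD44+ cells, as were 55.1% and 53.2% of all genes' differences in these fractions. Their median was 0.69 in c-kit+ cells, against 0.02 over all genes, and 0.66 in CD44+ cells, against 0.01 over all genes. Groups did not overlap, with estradiol above, for 1 gene in c-kit+ cells (Acod1; 5.34% of all genes) and 2 in CD44+ cells (Acod1 and Fpr2; 6.75% of all genes). No gene of the set had all estradiol arrays below the controls, as 2.47% of all genes did in c-kit+ cells and 5.92% in CD44+ cells. Both comparisons come from 1 fit and separate arrays.

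In CD44+ cells the replicate numbers paired the estradiol and control arrays. With the number as a block in a fit of all groups, 2 genes were called, both higher (0.506% of all genes were called higher in that fit). That fit applied the number across all groups, though equal numbers did not pair in all of them. For example, c-kit+ control 3 and CD44+ control 3 correlated at -0.209, under the limit of 0.1 set for pairing. Acod1 rose by 1.61 (limma, adjusted p = 0.000425 with the block) and Fpr2 by 1.19 (adjusted p = 0.000847 with the block). Within the numbered pairs, the Acod1 difference was 1.70, 1.43 and 1.70 and the Fpr2 difference 1.41, 0.93 and 1.22. Differences of all 3 pairs were above 0 for 7 of the 8 genes, against 16.8% of all genes, the exception being Nos2. Slamf8 varied least among them, at 0.49, 0.52 and 0.56, whereas Saa3 ranged from 0.11 to 1.17. When the 6 CD44+ arrays were fitted alone with the block, a setting added after the data were seen, Lcn2 (0.66, adjusted p = 0.0311), Slc15a2 (1.02, adjusted p = 0.0444) and Slamf8 (0.52, adjusted p = 0.0369) also passed. That made 5 genes called higher, beside 1.12% of all genes.

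**Figure D2:**
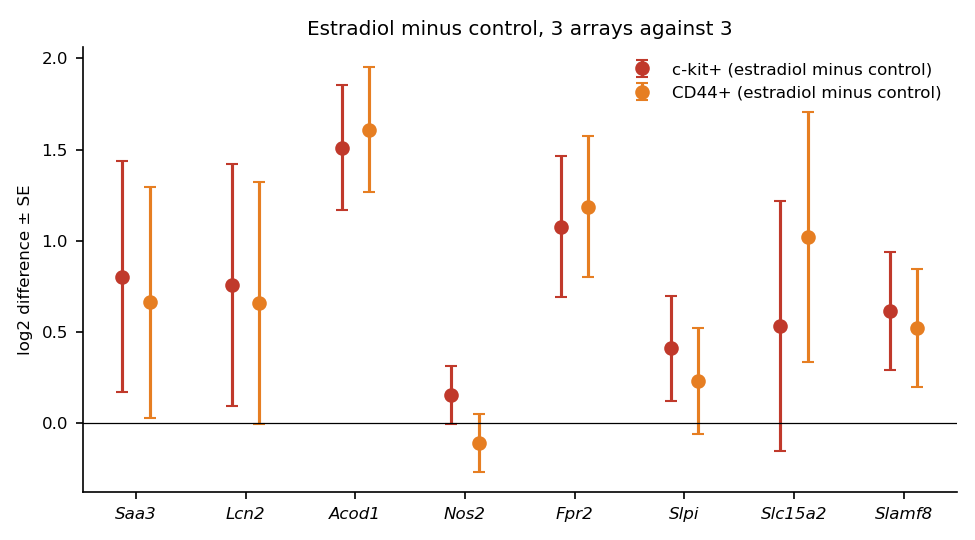
Estradiol minus control difference of each gene (log2, error bars are the SE of the fit over 12 arrays, 3 arrays against 3) in c-kit+ and CD44+ cells. Acod1 has 1.51 and 1.61 and Fpr2 1.08 and 1.19 in c-kit+ and CD44+ cells, and Nos2 lies near 0 in both.

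The estradiol effects of the 2 fractions were compared directly. No gene of the set was called for the difference of effects, nor was any of the 18193 genes (0% called by limma; 0 of the 8 and 296 of all genes had an unadjusted p under 0.05). The differences of effects, c-kit+ minus CD44+, ran from -0.49 for Slc15a2 (SE 0.97) to 0.26 for Nos2 (SE 0.23). For Acod1 the value was -0.10 ± 0.49.

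No gene of the set passed between the fractions. In control cultures none of the 8 was called between c-kit+ and CD44+ cells by limma (2.3% of all genes were), none had an unadjusted p under 0.05 (2467 of all genes had), and the groups overlapped in every one (7.41% of all genes lay apart with c-kit+ above and 8.33% with c-kit+ below). The median difference was 0.18, against 0.01 over all genes, and Slc15a2 had the largest, 0.84 ± 0.69 (adjusted p = 0.662). In estradiol cultures none was called either (2.65% of all genes were; 0 of the 8 and 1778 of all genes had an unadjusted p under 0.05), and the groups overlapped again (10% of all genes lay apart with c-kit+ above and 8.15% below). The median difference there was 0.29, against 0.03 over all genes. Slamf8 had the largest, 0.50 ± 0.32 (adjusted p = 0.74).

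The replicate numbers also paired the c-kit+ and CD44+ estradiol arrays. With the number as a block, the fit of all groups called 0.737% of all genes higher in c-kit+ than in CD44+ estradiol cells. Of the set it called 1 gene higher, Slamf8 (0.50, limma adjusted p = 0.0289). Its paired differences were 0.40, 0.76 and 0.33, and it also passed when these 6 arrays were fitted alone with the block (adjusted p = 0.023; 2.19% of all genes were called higher). All 3 paired differences were above 0 for 5 of the 8 genes, against 22.4% of all genes. The 3' minus 5' difference of the Gapdh control probe sets, a measure of RNA integrity and amplification, ran from 4.23 to 6.17 on c-kit+ estradiol arrays and from 3.32 to 4.31 on CD44+ estradiol arrays, and its part in this was not tested. Of the 14 macrophage markers 3 were also higher in c-kit+ than in CD44+ estradiol cells and none lower: Mertk by 0.91 (limma, adjusted p = 0.002533), Mrc1 by 0.66 (adjusted p = 0.03162) and C1qb by 0.57 (adjusted p = 0.02071). The part of macrophage content in the Slamf8 value was not tested either.

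By mean level, the order was c-kit+ estradiol, CD44+ estradiol, c-kit+ control and CD44+ control, from high to low, for Saa3, Lcn2, Fpr2, Slpi, Slc15a2 and Slamf8. Saa3, for example, averaged 12.77 ± 0.63, 12.45 ± 0.72, 11.96 ± 1.23 and 11.79 ± 1.17 in these groups (SD, n = 3 each), and neighbours in the order differed by less than their SDs. Acod1 had CD44+ estradiol first, at 12.29 ± 0.46, then c-kit+ estradiol at 12.13 ± 0.42, CD44+ control at 10.68 ± 0.55 and c-kit+ control at 10.62 ± 0.62. For Acod1 the step between the estradiol groups and the control groups was larger than any of these SDs, and the other steps were smaller than them. Nos2 had CD44+ control first, at 4.63 ± 0.21, and c-kit+ control last, at 4.37 ± 0.27.

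Levels of the set went with the replicate number. For 7 of the 8 genes replicate 1 was the lowest of its 3 arrays in all 4 groups, against 3.95% of all genes. Nos2 was the exception, with replicate 2 lowest in all 4 groups (1.26% of all genes). The mean of replicates 2 and 3 exceeded replicate 1 by 1.71 for Slc15a2, 1.65 for Lcn2, 1.61 for Saa3 and 1.00 for Fpr2, averaged over the 4 groups on the log2 scale. It did so by 0.84 for Acod1, 0.77 for Slamf8 and 0.72 for Slpi. Over all genes this gap had a median of 0.005.

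These gaps differed little between groups for some genes and much for others. For Slpi the gap was between 0.65 and 0.80 in the 4 groups, for Slamf8 between 0.66 and 0.86 and for Acod1 between 0.70 and 0.93. For Saa3 it was between 1.09 and 2.13 and for Slc15a2 between 1.28 and 2.23. The within-group SD of the fit was 1.06 for Slc15a2, 1.02 for Lcn2 and 0.97 for Saa3, and 0.52 for Acod1, against a median of 0.16 over all genes. The first 3 SDs lay above those of at least 99.96% of genes, and 7 of the 8 genes, all but Nos2, lay above the 95th percentile. For Saa3, Lcn2, Slpi, Slc15a2 and Slamf8 the gap between replicate 1 and the rest was larger than the estradiol difference in either fraction, and for Acod1 and Fpr2 it was smaller.

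**Figure D3:**
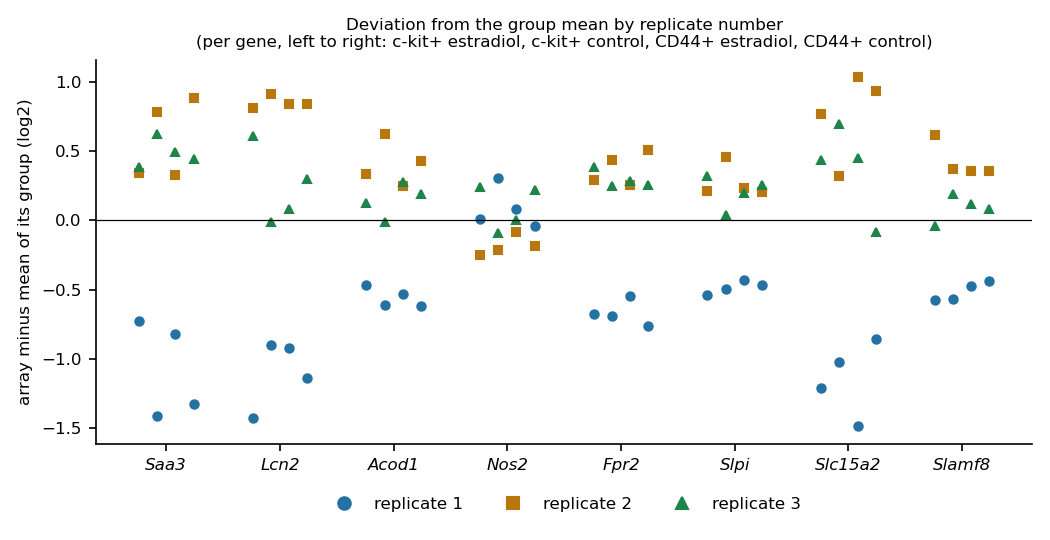
Each array's log2 level minus the mean of its group, for 8 genes, with 4 columns of points per gene for the 4 groups and colours for the replicate number. Replicate 1 lies below 0 in all 4 groups for 7 genes, down to -1.49 for Slc15a2, while the points of Nos2 lie between -0.25 and 0.30.

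Other measures moved with the replicate number too. The Gapdh 3' minus 5' difference was highest on replicate 1 in 4 of 4 groups, and the Actb difference in 3 of 4. On c-kit+ estradiol arrays the Gapdh differences were 6.17, 4.59 and 4.23, against 5.35, 5.23 and 4.62 on c-kit+ control arrays. In CD44+ cells they were 4.31, 3.32 and 3.50 with estradiol, against 4.14, 3.94 and 2.83 without. Among markers, the macrophage list had a gap of replicates 2 and 3 over 1 of 0.10 averaged over the groups, and 1 of its 14 genes, the scavenger receptor gene Marco, had replicate 1 lowest in all 4 groups (gap 0.87). The 11 stromal markers had a mean gap of -0.34, from -0.64 in CD44+ estradiol cells to 0.08 in c-kit+ control cells. The mean gap of the 13 neutrophil and granule markers was -0.04. The part of RNA quality, cell mixture or culture in the replicate pattern was not tested.

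**Figure D4:**
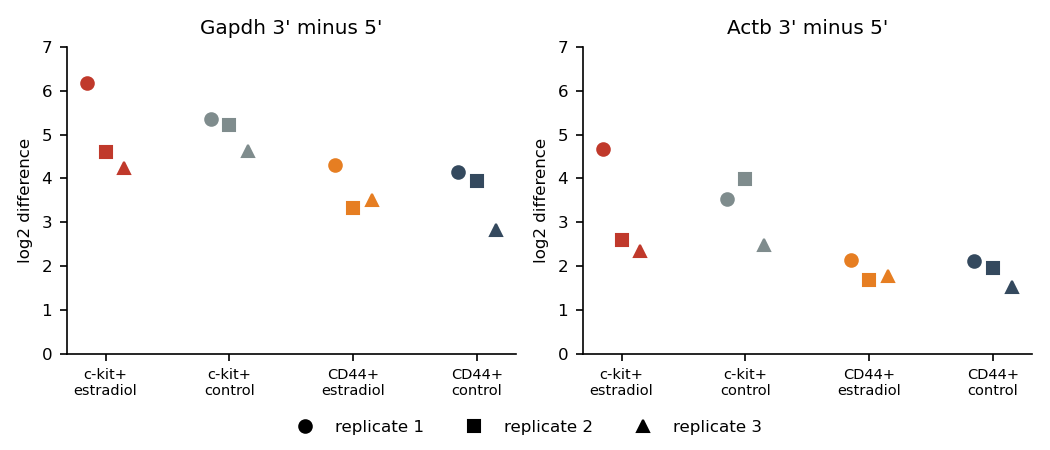
Difference of the 3' and 5' control probe sets (log2) of Gapdh, left, and Actb, right, on 12 arrays in 4 groups, with symbols for the replicate number. Gapdh values run from 2.83 to 6.17 with replicate 1 highest in each group, and c-kit+ arrays read higher than most CD44+ arrays.

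Leaving out replicate 1 of all 4 groups, a setting added after the data were seen, kept the sign of each estradiol difference. With the remaining 2 arrays against 2, Acod1 had 1.44 ± 0.21 in c-kit+ cells (limma, adjusted p = 0.0692) and rose by 1.56 in CD44+ cells (SE 0.21, adjusted p = 0.0365). Fpr2 had 1.07 in c-kit+ cells (SE 0.14, adjusted p = 0.0499, just under the threshold) and 1.08 in CD44+ cells (SE 0.14, adjusted p = 0.0365). No gene of the set was called in either fraction when replicate 2 or replicate 3 of all groups was left out instead. Acod1 and Fpr2 kept their sign there. Without replicate 1, 0.0989% of all genes were called in c-kit+ cells and 0.17% in CD44+ cells. Saa3, by contrast, had 0.46 in c-kit+ and 0.41 in CD44+ cells, against 0.80 and 0.66 with all arrays, and did not pass (adjusted p = 1 and 0.78).

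The levels of 7 genes ran together over the 12 arrays. Pearson's r between pairs of these ran from 0.68 to 0.95, the highest being Lcn2 with Slpi and Acod1 with Fpr2 reaching 0.94. Nos2 had r between -0.52 and -0.15 with them. The arrays share treatment, fraction and replicate number, so these values describe the set and carry no test. By the same measure the 5 genes outside the set most like its mean profile were Ccl5 (r = 0.95), Slc39a4 (0.94), Tmem176a (0.94), Irak3 (0.93) and Ccser1 (0.93). Ccl5, a chemokine of macrophages and T cells, was also the nearest to Saa3 and to Slpi (both r = 0.97), with a gap of replicates 2 and 3 over 1 of 1.79. Clec4e, a C-type lectin receptor, was nearest to Acod1 (0.95), Slc39a4, a zinc importer, to Fpr2 (0.96) and Pilra to Slamf8 (0.97). Ccser1 was nearest to Lcn2 (0.95) and to Slc15a2 (0.97), and Nr5a2 to Nos2 (0.84).

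**Figure D5:**
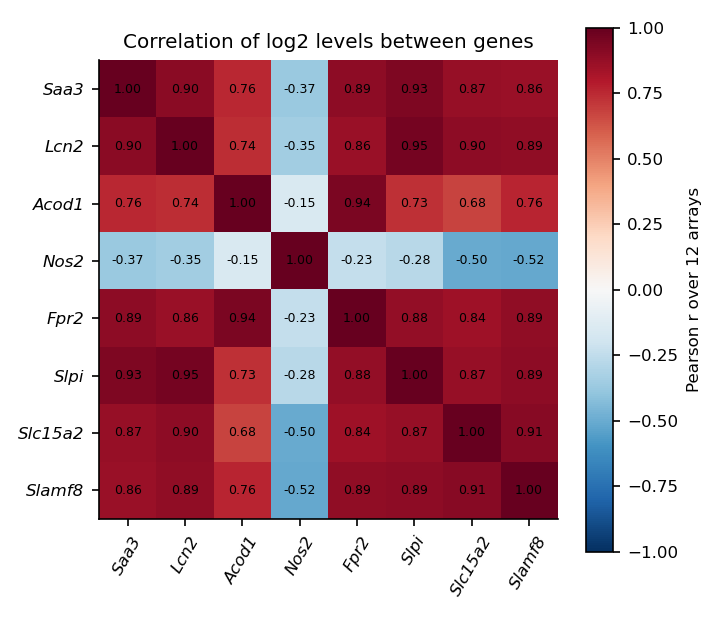
Pearson correlation of log2 levels over 12 arrays between each pair of the 8 genes, red for positive and blue for negative. Correlations among the 7 genes other than Nos2 are between 0.68 and 0.95, and the row of Nos2 is negative.

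Related genes were read from lists of each pathway. Of 19 other acute-phase protein genes none was called with estradiol in either fraction, with medians of 0.05 in c-kit+ and -0.05 in CD44+ cells. Between fractions 2 of them were lower in c-kit+ than in CD44+ cells, in estradiol and in control cultures alike. These were Hp, which encodes haptoglobin (-1.19, limma adjusted p = 0.02523 with estradiol and -1.20, adjusted p = 0.02715 without), and Ptx3, a long pentraxin (-2.39, adjusted p = 0.002394 with and -1.68, adjusted p = 0.02941 without). Stromal markers moved with them: 7 of 11 were lower in c-kit+ than in CD44+ cells with estradiol and 6 of 11 without, and their part in these differences was not tested. Of 18 other secreted antimicrobial and whey acidic protein genes none was called with estradiol. Wfdc18 was higher in c-kit+ than in CD44+ estradiol cells (0.73, adjusted p = 0.02071).

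Around the enzymes, none of 21 tricarboxylic acid cycle and itaconate genes was called in any of the 5 comparisons, with estradiol medians of 0.03 in c-kit+ and 0.13 in CD44+ cells. Of 16 nitric oxide, arginine and tetrahydrobiopterin genes none was called with estradiol. The gene Ddah1, whose product degrades an inhibitor of nitric oxide synthases, was lower in c-kit+ than in CD44+ cells (-2.47, limma adjusted p = 0.0005334 in estradiol cultures, and -2.16, adjusted p = 0.001748 in control cultures). None of 6 phagocyte oxidase genes was called in any comparison, with estradiol medians of 0.15 in c-kit+ and 0.18 in CD44+ cells. Of 12 iron and siderophore genes none was called with estradiol, and Slc40a1, the iron exporter ferroportin, was higher in c-kit+ than in CD44+ control cells (0.68, adjusted p = 0.02692).

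Around the receptors and carriers, none of 15 formyl peptide and related chemoattractant receptor and ligand genes was called with estradiol. Cmklr1, the chemerin receptor, was higher in c-kit+ than in CD44+ cells (0.79, limma adjusted p = 0.008441 with estradiol and 1.09, adjusted p = 0.001457 without). Of 7 Slc15 carrier and peptidoglycan sensing genes 1 rose with estradiol in CD44+ cells, Slc15a3, a lysosomal relative of Slc15a2 (0.57, adjusted p = 0.04784). Slc15a3 was also higher in c-kit+ than in CD44+ control cells (0.62, adjusted p = 0.006703). None of 9 other Slam family genes was called in any comparison, and their estradiol medians were 0.15 in c-kit+ and 0.08 in CD44+ cells.

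Of 15 NF-κB, C/EBP and related factor genes 2 rose with estradiol in c-kit+ cells and 3 in CD44+ cells, with none lower and medians of 0.42 and 0.57. Nfkbie, an inhibitor of NF-κB, rose by 1.17 in c-kit+ cells (limma, adjusted p = 0.0008868) and 1.19 in CD44+ cells (adjusted p = 0.0006695). Rel, an NF-κB subunit, rose by 0.86 in c-kit+ (adjusted p = 0.007714) and 0.89 in CD44+ cells (adjusted p = 0.004327), and Irf1 by 0.96 in CD44+ cells (adjusted p = 0.02945). Without replicate 2 of every group, a setting added after the data were seen, 1 gene of all was called with estradiol in c-kit+ cells and 0 in CD44+ cells, so at most 1 of these calls held there. Irf8, a factor of the macrophage lineage, was higher in c-kit+ than in CD44+ control cells (0.75, adjusted p = 0.02393). In that comparison 4 of the 14 macrophage markers were higher too and none lower, Mertk by 1.02, Fcgr1 by 0.71, Mrc1 by 0.66 and C1qb by 0.55. Their part in the higher values of Irf8, Cmklr1, Slc15a3 and Slc40a1 in c-kit+ cells was not tested.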

How the data were processed

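Expression was measured on 12 Affymetrix arrays from total RNA amplified in 2 cycles and labelled with biotin, per the labels' protocols. The authors deposited 1 log2 value per probe set and array. RMA, a method that background-corrects, normalizes and summarises probes, is named in the submitters' processing notes with no version. Of 45101 probe sets 64 were controls, 34945 named 1 gene, 932 several and 9160 were unnamed here. The brightest probe set of each gene gave 18193 genes, which entered as deposited, with no filter.

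Genes were fitted with limma 3.58.1 in R 4.3.3 with 1 mean per group over 12 arrays, empirical Bayes moderation and Benjamini-Hochberg adjustment over all genes (threshold 0.05). Figures were drawn with matplotlib 3.10.9 in Python 3.11.15. The fit without a block was run on simulated data with independent noise and no effect of replicate number. It therefore does not cover the replicate pattern of these genes or the calls with the block. The 9 genes, the related gene lists and the tests were chosen with earlier results of these data known. Named genes are the 9, called genes of the lists, the markers and the most similar profiles. Array medians lay between 4.75 and 4.84, no 2 arrays were identical, and levels of different probe sets are set side by side only to judge background and markers, since probes differ in brightness. Genes of the lists with no probe set of their own were not analysed here.

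Pairing by replicate number was judged from the correlation of deviations from group means over all genes other than the 9. Each pair of equal numbers had to exceed 0.1. CD44+ estradiol and control arrays met this (0.296, 0.363 and 0.321), as did c-kit+ and CD44+ estradiol arrays (0.441, 0.187 and 0.311). The pairing rests on these correlations, since the labels do not say what a number marks. The limit of 0.1 was not among the planned settings. Unequal numbers reached at most 0.01 between CD44+ estradiol and control arrays, and 0.035 between c-kit+ and CD44+ estradiol arrays. Elsewhere some unequal numbers exceeded the limit, such as c-kit+ control 2 with CD44+ control 3 (0.391) and c-kit+ control 3 with CD44+ control 1 (0.252). Other settings tried were every probe set, the mean over probe sets, the brighter genes only, median centring, quantile normalization, array weights, robust moderation with a trend, the replicate block, the compared arrays alone, an adjusted p under 0.1 and leaving out arrays.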

Additional observations from a re-analysis of the deposited data

How the results depend on the processing

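The count of 0 genes called held under most settings. With the replicate number as a block it was 3 for estradiol in c-kit+ cells (Acod1, Fpr2 and Slamf8; 0.319% of all genes were called higher), where equal numbers correlated at 0.339, 0.088 and 0.253 and so did not meet the criterion of pairing, 2 in CD44+ cells, and 1 between fractions in estradiol cultures. With only the compared arrays and the block it was 5 for estradiol in CD44+ cells, 1 between fractions in estradiol cultures and 0 in c-kit+ cells. Array weights and an adjusted p under 0.1 each called 1 gene for estradiol in CD44+ cells (0 without). Leaving out 1 array at a time or 1 replicate number in all groups gave counts from 0 to 1 for estradiol in c-kit+ cells, from 0 to 2 in CD44+ cells, and 0 in the other 3 comparisons. Over all genes, the calls for estradiol ran from 1 (without replicate 2) to 62 (replicate block) in c-kit+ cells, against 33 as reported, and from 0 (without replicate 2) to 1405 (array weights) in CD44+ cells, against 53. The median estradiol difference stayed above 0, from 0.31 to 1.15 in c-kit+ cells and from 0.18 to 1.10 in CD44+ cells. The medians of the other comparisons changed sign in some settings. Single genes changed sign with estradiol: in CD44+ cells Saa3 with array weights (-0.01), Slpi without control replicate 1 (-0.0004) and Nos2, and in c-kit+ cells Nos2 without replicate 3 (-0.01). The cause was not tested. With 3 arrays a group, levels near the Y-linked readings limit Nos2 and the lower values of Lcn2.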
